A study of Mus musculus with 24 samples.

Results

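The transcriptome of livers labelled as lacking p110α in hepatocytes was compared with that of control livers after a 24 h fast. p110α, encoded by Pik3ca, is a catalytic subunit of phosphatidylinositol 3-kinase, the lipid kinase that carries the signal of the insulin receptor to AKT. The comparison used 12 of the 24 liver arrays of the series, 6 labelled p110aLKO_Fasted and 6 labelled p110aLWT_Fasted, each read from the liver of 1 male mouse aged 12 weeks. They are called LKO_Fasted and LWT_Fasted below. Both groups carried floxed p110α alleles on a C57BL/6J background. The LKO mice also carried a Cre transgene under the albumin promoter, which is active in hepatocytes, and the LWT mice were the Cre-negative floxed controls. Time of day at death was the same for all mice. The other 12 arrays, LKO_Fed and LWT_Fed with 6 mice each, came from mice of the same genotypes with free access to food and were used to ask whether a genotype difference changed with fasting.

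In the fed liver, insulin acts through phosphatidylinositol 3-kinase and AKT to keep the transcription factor FOXO1 out of the nucleus, and to switch on genes of glucose use and fatty acid synthesis. In fasting, insulin falls, FOXO1 enters the nucleus and induces genes of glucose production, and fatty acids released from adipose tissue activate PPARα, the nuclear receptor that drives fatty acid oxidation and ketone body production. The fasted comparison asks what hepatocyte p110α still contributes when insulin is low.

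Expression is given as the authors' normalised log2 signal of 1 probe per gene, so that a difference of 1 is a 2-fold change. Levels can be compared between arrays, not between genes. A gene was called when its adjusted p was at or below 0.05 and its fold change was over 1.5 in limma, and "rose" and "fell" are used of called genes, always as LKO_Fasted against LWT_Fasted. In whole liver RNA, a change in the number of cells of a type and a change in RNA per cell cannot be told apart. Of 21779 genes, 885 were called, which is 4.06% of them. Of the 885, 671 had a RefSeq symbol that was no Rik, Gm or LOC name, and the others include transcripts and regions without a gene symbol. There were 391 increases (1.80%) and 494 decreases (2.27%). The median log2 difference over all genes was -0.0040. The change was over 2-fold for 225 called genes and over 4-fold for 25, of which 9 rose and 16 fell. For 491 called genes the 6 arrays of 1 group lay entirely above those of the other, against 1860 genes (8.54%) of all genes regardless of the call.

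Some LKO_Fasted arrays stood apart from the rest of their group. On the first principal component of the 12 arrays, which held 31.99% of the variance, every LWT_Fasted array lay between -37.5 and -17.1 and every LKO_Fasted array between 16.7 and 32.8. On the second, with 18.29%, LKO_Fasted 4 lay at 42.8 and LKO_Fasted 1 and 2 at -30.4 and -34.9, while the other 9 arrays lay between -5.8 and 14.2. The number of called genes was 948 without LKO_Fasted 4 and 897 without LKO_Fasted 1 and 2.

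The probe for the targeted gene did not separate the groups. The Pik3ca probe (chr3:32364747-32364806 in mm9, NCBI37) ranged from 12.05 to 12.42 in LWT_Fasted (median 12.32) and from 12.03 to 12.50 in LKO_Fasted (median 12.27), a log2 difference of -0.022 (SE 0.11, adjusted p = 0.92). The groups overlapped. Whether this probe lies inside the deleted part of the gene was not determined here, so it does not check the labels. On the fed arrays the same probe differed by 0.58 (adjusted p = 0.000542). None of the 10 PI3-kinase subunit genes was called in fasting. Pik3cb, the other catalytic subunit found in most tissues, differed by 0.017 log2 units (SE 0.068, adjusted p = 0.895), and Pik3r1, the main regulatory subunit p85α, by -0.47 log2 units (SE 0.10, adjusted p = 0.00111) with no overlap between the groups.

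Fasted LKO livers had higher RNA for a small part of the insulin-repressed FOXO1 targets. Of 20 such genes, 3 rose, 1 fell and 16 were not called, and the list median was -0.10 (-0.12 to -0.011 under the alternatives) against -0.0040 for all genes. The promoters of 4 of these targets are shown because FOXO1 acts on them through the insulin response sequence, of which CAAAACA is the core, together with that of Thrsp, the largest decrease of the genes named here. Each sequence runs from 250 bases before to 50 bases after the start of the gene, 5′ to 3′ on the strand of the gene, from RefSeq on build GRCm38.p6. Capitals mark CAAAACA, or TGTTTTG where it lies on the opposite strand. The sequences are those of Igfbp1 at chr11:7197537-7197836 (plus strand), Irs2 at chr8:11008880-11009179 (minus strand), G6pc at chr11:101367466-101367765 (plus strand), Pck1 at chr2:173152823-173153122 (plus strand) and Thrsp at chr7:97417501-97417800 (minus strand).
Igfbp1: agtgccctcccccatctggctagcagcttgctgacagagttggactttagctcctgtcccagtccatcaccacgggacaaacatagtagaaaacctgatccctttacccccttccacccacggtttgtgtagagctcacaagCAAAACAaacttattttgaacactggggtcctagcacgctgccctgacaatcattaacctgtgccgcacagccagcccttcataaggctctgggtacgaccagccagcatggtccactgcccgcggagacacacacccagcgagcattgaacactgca
Irs2: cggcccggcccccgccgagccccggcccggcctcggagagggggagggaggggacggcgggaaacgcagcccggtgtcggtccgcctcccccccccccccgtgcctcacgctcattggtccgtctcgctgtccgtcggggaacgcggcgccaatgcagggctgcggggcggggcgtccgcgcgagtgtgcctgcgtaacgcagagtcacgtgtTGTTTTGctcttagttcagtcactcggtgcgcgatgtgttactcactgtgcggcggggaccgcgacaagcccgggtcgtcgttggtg
G6pc: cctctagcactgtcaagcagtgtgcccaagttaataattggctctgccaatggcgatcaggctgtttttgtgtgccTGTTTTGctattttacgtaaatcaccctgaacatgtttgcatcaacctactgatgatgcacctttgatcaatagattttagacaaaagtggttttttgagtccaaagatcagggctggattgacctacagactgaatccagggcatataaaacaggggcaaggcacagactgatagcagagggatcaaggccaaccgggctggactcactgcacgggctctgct
Pck1: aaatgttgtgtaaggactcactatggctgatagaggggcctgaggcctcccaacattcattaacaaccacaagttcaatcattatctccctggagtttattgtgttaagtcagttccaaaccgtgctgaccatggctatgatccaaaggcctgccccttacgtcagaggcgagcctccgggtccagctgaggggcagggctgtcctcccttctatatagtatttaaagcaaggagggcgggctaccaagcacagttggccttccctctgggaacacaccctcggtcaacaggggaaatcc
Thrsp: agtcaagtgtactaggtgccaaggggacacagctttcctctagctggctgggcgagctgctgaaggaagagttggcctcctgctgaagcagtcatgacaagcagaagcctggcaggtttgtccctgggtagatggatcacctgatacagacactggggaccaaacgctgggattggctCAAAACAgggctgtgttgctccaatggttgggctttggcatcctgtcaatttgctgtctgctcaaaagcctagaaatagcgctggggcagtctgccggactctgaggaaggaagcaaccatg

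The motif starts 108 bases before the start of Igfbp1 and 72 before that of Thrsp, and in the opposite orientation 37 bases before Irs2 and 174 before G6pc. These letters are not in the Pck1 window. On either strand, CAAAACA was found in 2064 of 32851 mouse promoters of the same length (6.28%), in 716 of 12617 promoters of genes on the array (5.67%), in 4 of 17 FOXO1 targets with a promoter in the table (Igfbp1, Irs2, G6pc and Ccng2), in 3 of 18 clock genes, in 1 of 21 genes of fatty acid synthesis, in 9 of 246 promoters of genes that rose (3.66%) and in 24 of 311 of genes that fell (7.72%). A match is a description of the sequence and not a binding site.

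Among the targets whose promoters are printed above, Igfbp1 and Irs2 rose. Igfbp1 (probe chr11:7102442-7102501), a secreted IGF-binding protein whose gene insulin represses, ranged from 14.79 to 16.44 in LWT_Fasted (median 15.33) and from 16.45 to 18.49 in LKO_Fasted (median 17.22). All 6 LKO_Fasted arrays lay above all 6 LWT_Fasted arrays, and the log2 difference was 1.64 (SE 0.33, adjusted p = 0.00124), or 3.11-fold higher. Irs2, the docking protein that links the insulin receptor to the kinase, ranged from 11.09 to 12.45 in LWT_Fasted (median 11.98) and from 12.61 to 13.48 in LKO_Fasted (median 12.91), again with no overlap, and rose by 0.91 log2 units (SE 0.22, adjusted p = 0.00534). Pdk4, a kinase that inhibits the pyruvate dehydrogenase complex, rose with overlapping groups, by 1.17 log2 units (SE 0.35, adjusted p = 0.0205). Its call was lost without LKO_Fasted 5 or 6 or without LWT_Fasted 1, 4 or 5 (log2 differences 0.82 to 1.06). The rate-limiting genes of glucose production were not called. G6pc, the catalytic subunit of glucose-6-phosphatase, ranged from 14.83 to 15.81 in LWT_Fasted (median 15.48) and from 15.57 to 16.41 in LKO_Fasted (median 15.96) and differed by 0.48 log2 units (SE 0.17, adjusted p = 0.0505). It passed the thresholds without LWT_Fasted 3 or 6 (log2 differences 0.61 to 0.65). Pck1, phosphoenolpyruvate carboxykinase, ranged from 16.92 to 17.49 in LWT_Fasted (median 17.34) and from 17.02 to 17.80 in LKO_Fasted (median 17.32), and differed by 0.0012 log2 units (SE 0.21, adjusted p = 0.998). The 1 target that fell was Cdkn1a, which is described with the glucocorticoid targets below. Klf15, a transcription factor of amino acid breakdown that is not counted in this list, fell by 0.66 log2 units (SE 0.16, adjusted p = 0.00566). Its call was lost without LKO_Fasted 6 or without LWT_Fasted 3 (log2 differences -0.57 to -0.58).

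Upstream of these targets, 3 of 24 genes from the insulin receptor to AKT and FOXO were called. Irs2 rose, Foxo1 itself fell by 0.63 log2 units (SE 0.12, adjusted p = 0.000484), and so did Tsc22d3, a gene induced by FOXO and by glucocorticoids that is described with the glucocorticoid targets below. The Foxo1 groups did not overlap, but its call was lost without LKO_Fasted 5 or 6 or without LWT_Fasted 1 (log2 differences -0.56 to -0.57). Irs1, the other main docking protein, had a log2 difference of -0.43 (SE 0.12, adjusted p = 0.0101), under the fold threshold. Akt2, the main AKT of the liver, differed by 0.10 log2 units (SE 0.044, adjusted p = 0.134).

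**Figure D1:**
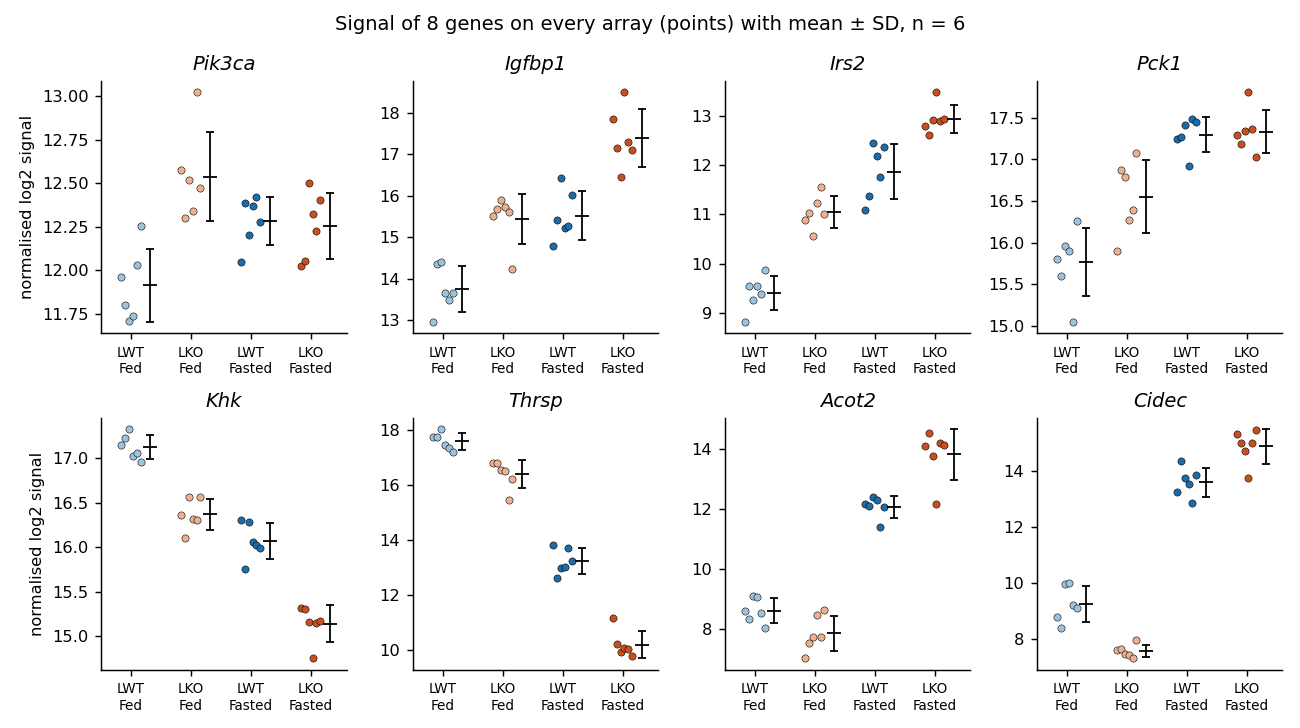
Normalised log2 signal (vertical axis) of 8 genes on each of the 24 arrays (points), by genotype and feeding state, with the mean and SD of 6 arrays beside each group. In the fasted groups Igfbp1, Irs2, Khk and Thrsp do not overlap and Pik3ca and Pck1 do, while Acot2 and Cidec are higher in LKO_Fasted and lower in LKO_Fed than in their controls.

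In glucose uptake and glycolysis, 3 of 29 genes fell and 1 (Pdk4) rose, with a median log2 difference of -0.17. Without LKO_Fasted 1 and 2, without LWT_Fasted 6 or with no array weights, 5 fell. Pklr, the liver pyruvate kinase, fell by 1.21 log2 units (SE 0.19, adjusted p = 0.000105), a call with overlapping groups. Khk, the first enzyme of fructose breakdown, ranged from 15.76 to 16.30 in LWT_Fasted (median 16.04) and from 14.75 to 15.32 in LKO_Fasted (median 15.17), and fell by 0.92 log2 units (SE 0.088, adjusted p = 3.65e-07) with no overlap. Slc2a2, the GLUT2 glucose carrier, differed by -0.58 log2 units (SE 0.14, adjusted p = 0.00539), under the fold threshold. It passed the threshold without LKO_Fasted 1 or 2 or without LWT_Fasted 2, 3 or 6 (log2 differences -0.63 to -0.68). Of 20 genes of gluconeogenesis, only Slc37a4, which carries glucose 6-phosphate into the endoplasmic reticulum, was called. It fell by 0.60 log2 units (SE 0.093, adjusted p = 9.52e-05), and its call was lost without LKO_Fasted 2 or 3 or without LWT_Fasted 2 (log2 differences -0.55 to -0.58), and also with the mean of its probes (-0.37).

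In glycogen metabolism 4 of 18 genes were called, and 3 of the 4 code for subunits that bring protein phosphatase 1 to glycogen. Ppp1r3c fell by 0.99 log2 units (SE 0.23, adjusted p = 0.00308) and Ppp1r3b fell by 0.73 log2 units (SE 0.14, adjusted p = 0.000885), whereas Ppp1r3g, the subunit induced by fasting, rose by 1.20 log2 units (SE 0.34, adjusted p = 0.0151). Pygl, the liver glycogen phosphorylase, fell by 0.64 log2 units (SE 0.074, adjusted p = 4.46e-06) with no overlap between the groups. The list median was -0.14. The Ppp1r3g call was lost without LWT_Fasted 5 (log2 difference 0.94).

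The genes of fatty acid synthesis did not fall together. Of 21 genes, 3 fell, none rose and 18 were not called, with a median of -0.06 (-0.13 to -0.0096 under the alternatives). Thrsp (probe chr7:104561649-104561708), a nuclear protein induced by insulin and carbohydrate that promotes lipogenesis, ranged from 12.61 to 13.82 in LWT_Fasted (median 13.11) and from 9.79 to 11.17 in LKO_Fasted (median 10.03). The lowest LWT_Fasted array lay above the highest LKO_Fasted array, and Thrsp fell by 3.11 log2 units (SE 0.24, adjusted p = 2.04e-08), or 8.63-fold lower. Acss2, the cytosolic acetyl-CoA synthetase, fell by 0.80 log2 units (SE 0.12, adjusted p = 0.000102), and Srebf1, the transcription factor SREBP1 that insulin activates, fell by 0.68 log2 units (SE 0.13, adjusted p = 0.000669). For both genes the groups did not overlap. The mean of all Acss2 probes gave -0.49 and no call. The Srebf1 call was lost without LWT_Fasted 1 or 4 (log2 differences -0.56 to -0.58). The enzymes that build palmitate showed no such difference. Fasn, fatty acid synthase, differed by -0.031 log2 units (SE 0.15, adjusted p = 0.911), Acaca, acetyl-CoA carboxylase, by 0.19 log2 units (SE 0.10, adjusted p = 0.186), and Acly, ATP citrate lyase, by -0.34 log2 units (SE 0.15, adjusted p = 0.115). Me1, malic enzyme, differed by -0.29 log2 units (SE 0.16, adjusted p = 0.206) and Mlxipl, the carbohydrate sensor ChREBP, by 0.038 log2 units (SE 0.088, adjusted p = 0.804).

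Elongases and desaturases moved in both directions. Of 14 genes, 2 rose and 3 fell. Elovl6, which lengthens palmitate, ranged from 10.44 to 11.35 in LWT_Fasted (median 10.74) and from 11.13 to 12.67 in LKO_Fasted (median 12.02), and rose by 1.25 log2 units (SE 0.20, adjusted p = 0.00012). Elovl5, which lengthens polyunsaturated fatty acids, rose by 0.70 log2 units (SE 0.12, adjusted p = 0.000356) with no overlap. The stearoyl-CoA desaturases, which make monounsaturated fatty acids, went the other way. Scd1 ranged from 15.78 to 16.89 in LWT_Fasted (median 16.17) and from 15.07 to 15.58 in LKO_Fasted (median 15.48), and fell by 0.84 log2 units (SE 0.16, adjusted p = 0.000617). Scd3 fell by 0.83 log2 units (SE 0.19, adjusted p = 0.00318), but the mean of all its probes gave -0.38 and no call. Scd2 fell by 0.60 log2 units (SE 0.12, adjusted p = 0.000899), a call lost without LKO_Fasted 1, 2 or 5 or without LWT_Fasted 1 (log2 differences -0.53 to -0.58).

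Lipid droplet genes moved in both directions too. Among 32 genes of triglyceride synthesis, lipid droplets and VLDL, 4 rose and 4 fell. Cidec, which fuses droplets, ranged from 12.86 to 14.36 in LWT_Fasted (median 13.65) and from 13.75 to 15.48 in LKO_Fasted (median 15.01), and rose by 1.49 log2 units (SE 0.25, adjusted p = 0.000223). Hilpda, an inhibitor of adipose triglyceride lipase, rose by 1.29 log2 units (SE 0.25, adjusted p = 0.000745), and Plin2, the main droplet coat protein of liver, by 0.72 log2 units (SE 0.13, adjusted p = 0.000372). Plin4, another perilipin (probe chr17:56240055-56240114), ranged from 12.76 to 13.59 in LWT_Fasted (median 13.15) and from 10.61 to 11.99 in LKO_Fasted (median 11.29). It fell by 1.87 log2 units (SE 0.19, adjusted p = 9.48e-07), or 3.64-fold lower, with no overlap. Cidea, a relative of Cidec, fell by 1.34 log2 units (SE 0.35, adjusted p = 0.00854), with 5 of 6 LKO_Fasted arrays well above background. Dgat2, which makes triglyceride from diacylglycerol, fell by 0.68 log2 units (SE 0.081, adjusted p = 5.15e-06). Pnpla7, a lysophospholipase, rose and Lpin1, a phosphatidate phosphatase, fell, but these calls were weak. The Pnpla7 value of 0.60 log2 units (SE 0.11, adjusted p = 0.000359) lost its call without LKO_Fasted 5 or 6 or without LWT_Fasted 1 or 4 (log2 differences 0.49 to 0.57), and the Lpin1 value of -1.06 log2 units (SE 0.35, adjusted p = 0.0364) lost it without LKO_Fasted 2, 3, 4 or 6 or without LWT_Fasted 3, 5 or 6 (log2 differences -0.87 to -1.07).

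Of 17 genes of fatty acid uptake and binding, 4 rose and 1 fell, and the list median was 0.18. Without LKO_Fasted 5 or 6, 2 rose. Lpl, lipoprotein lipase, which the adult liver normally makes little of, ranged from 8.90 to 9.84 in LWT_Fasted (median 9.50) and from 10.22 to 11.46 in LKO_Fasted (median 10.58), and rose by 1.23 log2 units (SE 0.22, adjusted p = 0.00036). The mean of its probes gave 0.62. Acsl4, which activates arachidonate, rose by 0.85 log2 units (SE 0.13, adjusted p = 0.000123). Neither gene had overlapping groups. Of the fatty acid binding proteins, Fabp5 rose by 1.43 log2 units (SE 0.46, adjusted p = 0.0281) and Fabp4 rose by 0.61 log2 units (SE 0.16, adjusted p = 0.00932), and Cd36, the fatty acid carrier, fell by 0.99 log2 units (SE 0.33, adjusted p = 0.0331), all with overlap. The Fabp5 call was lost without LKO_Fasted 3, 5 or 6 or without LWT_Fasted 1, 4 or 5 (log2 differences 1.09 to 1.37), that of Fabp4 without LKO_Fasted 4, 5 or 6 or without LWT_Fasted 3 or 6 (log2 differences 0.45 to 0.58) and the Cd36 call without LKO_Fasted 1, 3, 5 or 6 or without LWT_Fasted 1, 4 or 5 (log2 differences -0.64 to -1.0). Of 15 apolipoproteins and genes of lipid secretion, 1 rose and 2 fell, with a median of 0.0048. Apoa4, an apolipoprotein of triglyceride-rich particles, rose by 0.80 log2 units (SE 0.14, adjusted p = 0.000431). Angptl8, which restrains lipoprotein lipase, fell by 0.90 log2 units (SE 0.23, adjusted p = 0.0079).

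Fatty acid oxidation genes shifted upwards by a small amount on 5 of the 6 LKO_Fasted arrays. Of 33 mitochondrial and peroxisomal genes, 4 rose and none fell, and 16 were higher at an adjusted p at or below 0.05 with no least fold, a threshold that 10.8% of all genes passed in that direction. The list median was 0.23, and 29 of the 33 differences were above 0. By array, the median difference from the LWT_Fasted mean was 0.1915 to 0.2803 on 5 LKO_Fasted arrays and -0.2321 on LKO_Fasted 4, against -0.0929 to 0.0912 on the controls. Without LKO_Fasted 4, 19 genes were higher at that adjusted p and the list median was 0.2638. Only 10 were higher without LKO_Fasted 1 and 2 or without LWT_Fasted 5, and 7 with no array weights. The number that rose was 2 without LKO_Fasted 2, 3 or 5 or without LWT_Fasted 5 or 6, with no array weights and with the scanner's processed signal. Acot2, a mitochondrial acyl-CoA thioesterase (probe chr12:85334553-85334612), ranged from 11.37 to 12.38 in LWT_Fasted (median 12.11) and from 12.16 to 14.53 in LKO_Fasted (median 14.09), and rose by 1.95 log2 units (SE 0.28, adjusted p = 5.47e-05), or 3.85-fold higher. Ehhadh, the peroxisomal bifunctional enzyme, rose by 1.34 log2 units (SE 0.19, adjusted p = 3.92e-05). Acot1, the cytosolic neighbour of Acot2, rose by 0.65 log2 units (SE 0.22, adjusted p = 0.0404) and Acaa1b, a peroxisomal thiolase, by 0.60 log2 units (SE 0.17, adjusted p = 0.0124). Both calls were fragile. That of Acot1 was lost without LKO_Fasted 1, 2, 3, 5 or 6 or without LWT_Fasted 1, 2, 4, 5 or 6 (log2 differences 0.57 to 0.69), and that of Acaa1b without LKO_Fasted 2, 3 or 5 or without LWT_Fasted 3, 5 or 6 (log2 differences 0.53 to 0.57). Acot1 and Acot2 are close paralogs, and probes may cross-hybridise.

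Cpt1a, which admits fatty acids to the mitochondrion, differed by 0.29 log2 units (SE 0.076, adjusted p = 0.00788), and Acadl, the long-chain acyl-CoA dehydrogenase, by 0.48 log2 units (SE 0.082, adjusted p = 0.000242), both under the fold threshold. Slc16a1, the monocarboxylate carrier that exports ketone bodies, was the only one of 9 ketone body genes called, and rose by 0.75 log2 units (SE 0.093, adjusted p = 8.14e-06).

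Of 21 other PPARα targets, 4 rose and 3 fell, and 4 were higher at an adjusted p at or below 0.05, which 10.8% of all genes were. Without LKO_Fasted 4, 4 rose, 1 fell and 7 were higher. Only 2 were higher without LKO_Fasted 6, without LWT_Fasted 1, 4 or 5 or on the 12 fasted arrays alone. Only 2 rose without LKO_Fasted 5 or 6, without LWT_Fasted 4 or on the 12 fasted arrays alone, 1 without LWT_Fasted 5 and none without LWT_Fasted 1. Cpt1b, the muscle-type carnitine palmitoyltransferase, rose by 0.72 log2 units (SE 0.17, adjusted p = 0.00382). Fgf21, the fasting hormone of the liver, rose by 0.85 log2 units (SE 0.26, adjusted p = 0.0244), with overlapping groups. Fitm1, a droplet-forming protein, fell by 1.39 log2 units (SE 0.23, adjusted p = 0.000162) with no overlap and Cyp4a12a, an omega-hydroxylase of male liver, fell by 0.72 log2 units (SE 0.18, adjusted p = 0.00764). The classic PPARα targets Cyp4a10 and Cyp4a14 were not called. The first differed by 0.44 log2 units (SE 0.36, adjusted p = 0.417) and the second by -0.19 log2 units (SE 0.34, adjusted p = 0.75). The Cpt1b call was lost without LWT_Fasted 1 (log2 difference 0.58), that of Fgf21 without LKO_Fasted 5 or 6 or without LWT_Fasted 1, 4 or 5 (log2 differences 0.61 to 0.75) and that of Cyp4a12a without LKO_Fasted 4 (log2 difference -0.57).

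Cholesterol synthesis genes under SREBP2, the transcription factor that senses sterol, were on the high side. Of 23 genes, 4 rose and none fell, 18 differences were above 0, and the list median was 0.26, with 0.14 to 0.49 under the alternatives. The number that rose was 3 without LKO_Fasted 1 and 2, 8 without LWT_Fasted 3 and 7 without LWT_Fasted 6. Idi1, isopentenyl diphosphate isomerase, rose by 1.03 log2 units (SE 0.24, adjusted p = 0.00398), Hsd17b7, a sterol 3-ketoreductase, by 0.96 log2 units (SE 0.16, adjusted p = 0.000209) and Cyp51, lanosterol demethylase, by 0.90 log2 units (SE 0.22, adjusted p = 0.0054). The arrays overlapped: the list median by array ran from -0.0705 to 0.7604 in LKO_Fasted and from -0.3717 to 0.4271 in LWT_Fasted.

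Some genes of bile acid synthesis and transport fell. Of 22, 5 fell and none rose, with a median of -0.20, and 3 fell with no array weights. Akr1d1, the steroid 5β-reductase of bile acid synthesis, ranged from 10.26 to 11.30 in LWT_Fasted (median 10.89) and from 9.63 to 10.39 in LKO_Fasted (median 9.82), and fell by 1.09 log2 units (SE 0.12, adjusted p = 1.99e-06). Cyp2c70, which makes the muricholic acids of the mouse, fell by 1.11 log2 units (SE 0.30, adjusted p = 0.0117). Of the hepatic carriers, Slco1b2 fell by 0.70 log2 units (SE 0.12, adjusted p = 0.00023) and Slco1a4 fell by 0.70 log2 units (SE 0.19, adjusted p = 0.00952). Abcg5, a subunit of the sterol exporter of the canalicular membrane, fell by 0.85 log2 units (SE 0.15, adjusted p = 0.000272). Cyp7a1, the rate-limiting enzyme of bile acid synthesis, had a wide spread in both groups, from 9.41 to 10.62 in LWT_Fasted and from 8.57 to 11.42 in LKO_Fasted, and differed by -0.16 log2 units (SE 0.40, adjusted p = 0.821). The Slco1b2 call was lost without LKO_Fasted 6 (log2 difference -0.58), and that of Slco1a4 without LKO_Fasted 3 (log2 difference -0.58).

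Secreted factors moved in both directions. Of 33 hepatokines and hormones, 8 rose and 6 fell, or 42.4%, against 4.06% of all genes. The genes with the largest changes are named where the 6 arrays of 1 group did not overlap those of the other and 5 or 6 arrays of the higher group had a probe signal well above background. Only genes with a RefSeq symbol that was no Rik, Gm, LOC or clone name were ranked. The largest such increase was Ntf3, neurotrophin 3, which ranged from 6.56 to 7.47 in LWT_Fasted (median 6.78) and from 9.45 to 10.94 in LKO_Fasted (median 10.19), with every LKO_Fasted array above every control. Ntf3 rose by 3.21 log2 units (SE 0.22, adjusted p = 4.13e-09), or 9.23-fold higher. Lepr, the leptin receptor, whose soluble form is released by the liver (probe chr4:101452666-101452725), ranged from 9.53 to 10.78 in LWT_Fasted (median 9.88) and from 12.21 to 13.15 in LKO_Fasted (median 12.54). It rose by 2.56 log2 units (SE 0.17, adjusted p = 3.1e-09), or 5.9-fold higher, again without overlap. Leap2 (probe chr11:53235798-53235857), the liver-derived antagonist of the ghrelin receptor, ranged from 12.64 to 13.51 in LWT_Fasted (median 12.96) and from 9.30 to 11.35 in LKO_Fasted (median 10.35). It fell by 2.64 log2 units (SE 0.20, adjusted p = 1.45e-08), or 6.24-fold lower.

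Several other liver hormones moved. Enho, which encodes adropin, rose by 1.43 log2 units (SE 0.23, adjusted p = 0.000115), and Fst, follistatin, a binder of activins, by 1.26 log2 units (SE 0.21, adjusted p = 0.000213). The groups did not overlap for either gene. Inhbe, the activin E subunit that acts on adipose tissue, rose by 0.95 log2 units (SE 0.23, adjusted p = 0.00456). Lect2, a hepatokine linked to muscle insulin resistance, fell by 1.01 log2 units (SE 0.14, adjusted p = 2.13e-05) and Tsku, tsukushi, fell by 0.81 log2 units (SE 0.11, adjusted p = 3.61e-05). Hamp2, a hepcidin paralog, fell by 1.75 log2 units (SE 0.44, adjusted p = 0.00669), while Hamp, the iron hormone hepcidin, differed by 0.027 log2 units (SE 0.16, adjusted p = 0.931).

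In the growth hormone and IGF axis, 6 of 28 growth hormone genes (2 rose and 4 fell) and 2 of 12 IGF genes were called. Only 2 growth hormone genes fell without LKO_Fasted 4 or 6 or without LWT_Fasted 5. Socs2 (probe chr10:94875066-94875125), a feedback inhibitor that growth hormone induces through STAT5, ranged from 9.42 to 12.29 in LWT_Fasted (median 10.44) and from 12.43 to 13.52 in LKO_Fasted (median 13.31). The groups did not overlap, and Socs2 rose by 2.27 log2 units (SE 0.47, adjusted p = 0.00152), or 4.82-fold higher. The mean of its probes gave 1.43. Socs3, of the same family, rose by 0.92 log2 units (SE 0.23, adjusted p = 0.00616). Cish, another feedback inhibitor, spread too widely to be called, from 9.45 to 12.43 in LWT_Fasted (median 10.84) and from 11.81 to 12.89 in LKO_Fasted (median 12.19), and differed by 1.15 log2 units (SE 0.63, adjusted p = 0.21). Ghr, the growth hormone receptor, fell by 0.59 log2 units (SE 0.079, adjusted p = 1.89e-05), close to the fold threshold. Hsd3b5, a steroid dehydrogenase of male liver that depends on growth hormone pulses, ranged from 10.92 to 12.61 in LWT_Fasted (median 11.84) and from 8.66 to 11.02 in LKO_Fasted (median 9.68), and fell by 2.02 log2 units (SE 0.34, adjusted p = 0.000215). Igfbp2, an IGF-binding protein, rose by 1.25 log2 units (SE 0.21, adjusted p = 0.000212) with no overlap, whereas Igf1 itself differed by -0.049 log2 units (SE 0.066, adjusted p = 0.652). The Ghr call was lost without LKO_Fasted 4, 5 or 6 or without LWT_Fasted 1, 2, 4 or 5 (log2 differences -0.54 to -0.57).

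Acute phase genes showed no common direction: 2 of 28 rose and 2 fell. Saa4 (probe chr7:53983662-53983721), the constitutive serum amyloid A, ranged from 13.10 to 14.23 in LWT_Fasted (median 13.69) and from 10.97 to 12.05 in LKO_Fasted (median 11.66), and fell by 2.16 log2 units (SE 0.20, adjusted p = 2.83e-07), or 4.46-fold lower. Il1rn, the interleukin 1 receptor antagonist, ranged from 6.49 to 7.90 in LWT_Fasted (median 7.38) and from 8.55 to 9.6 in LKO_Fasted (median 9.28), and rose by 2.00 log2 units (SE 0.22, adjusted p = 2.69e-06). Neither gene had overlapping groups. Il6ra, the interleukin 6 receptor, fell by 0.89 log2 units (SE 0.17, adjusted p = 0.000654), while Saa1, an inducible serum amyloid A, differed by -0.13 log2 units (SE 0.46, adjusted p = 0.882).

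Some output genes of the circadian clock fell, in mice killed at the same hour. Of 19 core clock and output genes, 5 fell and none rose, and 17 differences were below 0, with a median of -0.16 (-0.28 to -0.092 under the alternatives). Only 3 fell without LKO_Fasted 2, without both LKO_Fasted 1 and 2 or on the 12 fasted arrays alone, with Noct and Per1 not called. Usp2, a clock-controlled deubiquitinase, ranged from 11.37 to 11.96 in LWT_Fasted (median 11.63) and from 9.54 to 10.61 in LKO_Fasted (median 10.55), and fell by 1.33 log2 units (SE 0.17, adjusted p = 1.21e-05). Ciart, a repressor of the clock, fell by 1.56 log2 units (SE 0.16, adjusted p = 1.11e-06), with 3 of 6 LKO_Fasted arrays well above background. Hlf, a PAR bZIP factor, fell by 0.70 log2 units (SE 0.11, adjusted p = 0.000138), Noct, a circadian NADP phosphatase, fell by 1.44 log2 units (SE 0.39, adjusted p = 0.0114) and Per1, a core repressor, fell by 0.65 log2 units (SE 0.22, adjusted p = 0.0407). Other core and output genes were not called: Arntl, which encodes BMAL1, differed by -0.052 log2 units (SE 0.14, adjusted p = 0.843), Nr1d1, REV-ERBα, by -0.11 log2 units (SE 0.18, adjusted p = 0.703) and Dbp, another PAR bZIP factor, by -0.47 log2 units (SE 0.19, adjusted p = 0.0788). The Per1 call was lost without LKO_Fasted 1, 2, 3 or 6 or without LWT_Fasted 1, 3, 5 or 6 (log2 differences -0.46 to -0.66), and that of Noct without LKO_Fasted 2 (log2 difference -1.17). Dbp passed the thresholds without LWT_Fasted 3 or 6 (log2 differences -0.63 to -0.64).

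Some glucocorticoid-induced genes fell as well. Of 20 such genes and metallothioneins, 7 fell and none rose, with a median of -0.29 (-0.33 to -0.15 under the alternatives). The number that fell was 2 without LKO_Fasted 3 or LWT_Fasted 3, 3 without LWT_Fasted 6, and 4 without LKO_Fasted 6, LWT_Fasted 5 or both LKO_Fasted 1 and 2. Tsc22d3, also called GILZ, ranged from 12.86 to 14.12 in LWT_Fasted (median 13.74) and from 11.72 to 12.52 in LKO_Fasted (median 12.18), and fell by 1.40 log2 units (SE 0.19, adjusted p = 2.17e-05), with no overlap. Cdkn1a, the cell cycle inhibitor p21, fell by 1.14 log2 units (SE 0.33, adjusted p = 0.0154), Zbtb16, a transcription factor, fell by 0.97 log2 units (SE 0.33, adjusted p = 0.0384) and Fkbp5, a chaperone of the glucocorticoid receptor, fell by 0.63 log2 units (SE 0.14, adjusted p = 0.00258). Nr3c1, the glucocorticoid receptor, differed by -0.09 log2 units (SE 0.066, adjusted p = 0.367). Per1 and Klf15 are counted in this list too. The Cdkn1a call was lost without LKO_Fasted 3 or without LWT_Fasted 3 or 6 (log2 differences -0.90 to -0.95), that of Zbtb16 without LKO_Fasted 3, 4, 5 or 6 or without LWT_Fasted 1, 2, 3, 4 or 5 (log2 differences -0.75 to -1.02) and that of Fkbp5 without LKO_Fasted 2 or 3 or without LWT_Fasted 3 or 6 (log2 differences -0.53 to -0.56). By array, the list median was 0.0802 on LKO_Fasted 4 and -0.4481 to -0.1288 on the other 5, against -0.0718 to 0.0860 on the controls.

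No drug-metabolising enzyme of the lists rose. Of 41 P450 enzymes, 10 fell, none rose, and 24 were lower at an adjusted p at or below 0.05 with no least fold, which 11.5% of all genes were. The list median was -0.43 and stayed between -0.49 and -0.35 under the alternatives tried. Cyp2a4 and Cyp2a5, near-identical steroid and coumarin hydroxylases whose probes may not tell them apart, differed by -1.04 log2 units (SE 0.23, adjusted p = 0.00218) and -0.94 log2 units (SE 0.20, adjusted p = 0.00194), and both fell. Cyp2d22 fell by 0.88 log2 units (SE 0.10, adjusted p = 2.07e-06), Cyp2c55 fell by 1.03 log2 units (SE 0.17, adjusted p = 0.000235) and Cyp1a2, a pericentral enzyme, fell by 0.79 log2 units (SE 0.15, adjusted p = 0.000553). Cyp2b10, a target of the xenobiotic receptor CAR, differed by -1.73 log2 units (SE 0.65, adjusted p = 0.0619) and Cyp3a11, a target of PXR, by -0.54 log2 units (SE 0.17, adjusted p = 0.0229), and neither was called. Cyp2b10 passed the thresholds without LKO_Fasted 4 or without LWT_Fasted 2 (log2 differences -1.88 to -1.98), with no slide term (-1.87, adjusted p = 0.0386) and with the replicate block (-1.35, adjusted p = 0.0461), and Cyp3a11 without LKO_Fasted 2 or 3 or without LWT_Fasted 2, 3 or 6 (log2 differences -0.59 to -0.63).

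Of 40 conjugation enzymes, 9 fell, none rose and 19 were lower at that adjusted p, with a median of -0.25. Nat8, an N-acetyltransferase, ranged from 12.08 to 13.69 in LWT_Fasted (median 13.07) and from 9.81 to 11.49 in LKO_Fasted (median 10.54), and fell by 2.16 log2 units (SE 0.29, adjusted p = 2.06e-05), or 4.47-fold lower. Gstt3, a glutathione transferase, fell by 1.90 log2 units (SE 0.18, adjusted p = 2.36e-07). Of the sulfotransferases, Sult1b1 fell by 1.52 log2 units (SE 0.10, adjusted p = 1.44e-09) and Sult1d1 fell by 1.52 log2 units (SE 0.21, adjusted p = 2.75e-05). For Nat8, Gstt3 and Sult1b1 the groups did not overlap. Of 40 genes of amino acid breakdown and the urea cycle, 4 fell and none rose. At that adjusted p 13 were lower and 4 higher. Without LKO_Fasted 4, 6 fell, 21 were lower and 3 higher. Only 1 was higher without LKO_Fasted 6, and 2 without LWT_Fasted 1, 4 or 5, on the 12 fasted arrays alone or with the scanner's processed signal. Prodh, which starts proline breakdown, fell by 0.95 log2 units (SE 0.087, adjusted p = 2.42e-07), and Hal, histidine ammonia lyase, fell by 0.87 log2 units (SE 0.17, adjusted p = 0.00099). Of 19 amino acid carriers, 2 fell and none rose. Slc6a9, a glycine carrier, fell by 1.5 log2 units (SE 0.14, adjusted p = 1.87e-07).

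Ribosomal protein genes were higher by a small and even amount. All 34 measured differences were above 0, from 0.10 to 0.33, none passed the fold threshold, and 27 were higher at an adjusted p at or below 0.05, which 10.8% of all genes were. The median of 0.21 stayed between 0.19 and 0.24 under the alternatives. By array, the list median was 0.1704 to 0.2546 in LKO_Fasted and -0.0895 to 0.0691 in LWT_Fasted. Rpl10a, of the large subunit, ranged from 16.01 to 16.25 in LWT_Fasted (median 16.15) and from 16.34 to 16.55 in LKO_Fasted (median 16.48), and differed by 0.32 log2 units (SE 0.052, adjusted p = 0.000164), with no overlap. Subunits of oxidative phosphorylation had a median of -0.06, with none of 34 called. Ddit4, an inhibitor of mTORC1 that stress and glucocorticoids induce, ranged from 10.92 to 13.44 in LWT_Fasted (median 12.43) and from 9.54 to 12.01 in LKO_Fasted (median 10.12), and fell by 1.93 log2 units (SE 0.32, adjusted p = 0.000183). Srxn1, a target of the oxidant sensor NRF2, rose by 1.25 log2 units (SE 0.10, adjusted p = 4.68e-08) without overlap and was the only one of 20 NRF2 genes called.

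**Figure D2:**
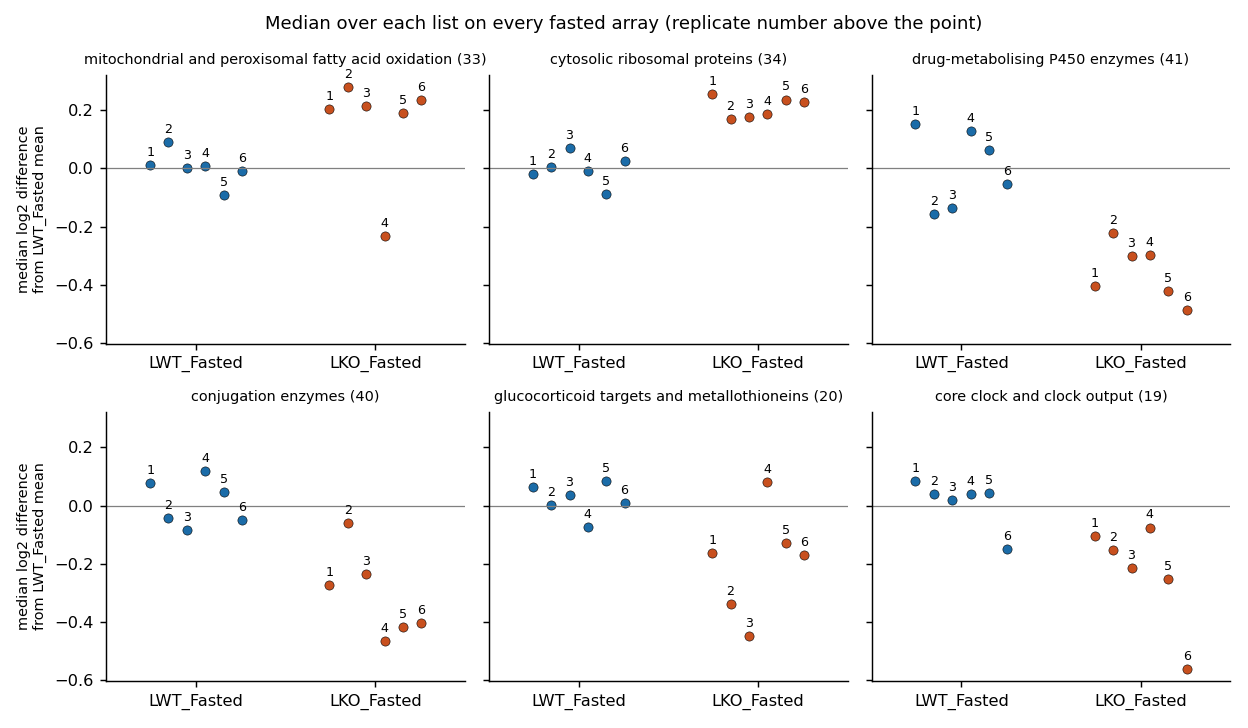
Median over the genes of 6 lists on each fasted array, as the log2 difference from the LWT_Fasted mean (vertical axis), with the replicate number above each point. Ribosomal proteins are higher on all 6 LKO_Fasted arrays (0.1704 to 0.2546), and fatty acid oxidation is higher on 5 and lower on LKO_Fasted 4 (-0.2321).

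Stress and growth genes changed singly and in both directions. Of 24 chaperones and heat shock proteins, Hspb1, a small heat shock protein, rose by 1.1 log2 units (SE 0.22, adjusted p = 0.000867) and Hsp90aa1, an inducible HSP90, rose by 0.66 log2 units (SE 0.13, adjusted p = 0.000867), while Herpud1, of endoplasmic reticulum protein degradation, fell by 1.07 log2 units (SE 0.17, adjusted p = 0.000101) without overlap. Of 28 cell cycle genes, 20 differed by more than 0 and the median was 0.17 (0.060 to 0.32 under the alternatives), with 1 that rose and 2 that fell. Tk1, thymidine kinase, fell by 1.08 log2 units (SE 0.12, adjusted p = 3.03e-06) and Rrm2, a ribonucleotide reductase subunit, fell by 0.82 log2 units (SE 0.13, adjusted p = 9.14e-05), both without overlap, while Ccnd1, cyclin D1, rose by 0.76 log2 units (SE 0.21, adjusted p = 0.0126). Of 23 p53 and growth arrest genes, 4 were called. Cdkn1a and Trp53inp1 fell, the latter by a log2 difference of -0.77 (SE 0.19, adjusted p = 0.00552), and the stress sensors Gadd45b and Gadd45g rose by 0.93 log2 units (SE 0.19, adjusted p = 0.00159) and 1.08 log2 units (SE 0.33, adjusted p = 0.0236). Of 30 nuclear receptors only Nr4a1, an immediate early gene, was called. It ranged from 8.22 to 8.94 in LWT_Fasted (median 8.52) and from 9.18 to 12.25 in LKO_Fasted (median 9.66), and rose by 1.36 log2 units (SE 0.25, adjusted p = 0.000424) without overlap. Ddit4 and Atf5, a transcription factor of mitochondrial stress that rose by 0.64 log2 units (SE 0.11, adjusted p = 0.000199), were the 2 called genes of 23 ATF4 targets. Nnmt, which methylates nicotinamide, rose by 0.96 log2 units (SE 0.19, adjusted p = 0.000944), the only one of 13 cofactor genes. Slc40a1, the iron exporter ferroportin, fell by 0.64 log2 units (SE 0.13, adjusted p = 0.000797), and with Hamp2 made up the called genes of 16 iron genes. Counts in these lists moved with the arrays used: 3 ATF4 targets rose without LKO_Fasted 3, 3 nuclear receptors rose without LWT_Fasted 4 and 2 fell without LKO_Fasted 3, and 3 cell cycle genes rose without LKO_Fasted 1 and 2. None of 23 genes of autophagy and lysosome was called.

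Some of these calls were lost when single arrays were left out. That of Hsp90aa1 was lost without LKO_Fasted 1 or 2 or without LWT_Fasted 1 (log2 differences 0.56 to 0.58), that of Atf5 without LWT_Fasted 5 (log2 difference 0.56) and that of Slc40a1 without LKO_Fasted 1 or without LWT_Fasted 4 (log2 difference -0.56). These 3 kept an adjusted p under 0.05 and slipped under the fold threshold. The calls of Ccnd1 without LWT_Fasted 3 (log2 difference 0.60) and of Gadd45g without LKO_Fasted 3 or 5 (log2 differences 0.92 to 0.94) were lost on the adjusted p. Gadd45g was not called on the 12 fasted arrays alone either (1.12, adjusted p = 0.082).

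The largest changes outside these lists were in genes of varied function, and in each the groups did not overlap, by the same naming rule. Cdc42ep5, an effector of the GTPase CDC42, ranged from 7.88 to 8.87 in LWT_Fasted (median 8.6) and from 10.88 to 11.75 in LKO_Fasted (median 11.01), and rose by 2.66 log2 units (SE 0.15, adjusted p = 3.57e-10). Cables1, a CDK-binding protein, rose by 2.30 log2 units (SE 0.18, adjusted p = 3.9e-08), and Cntnap1, a contactin-associated protein of axons, by 2.09 log2 units (SE 0.16, adjusted p = 2.57e-08), but another Cntnap1 probe differed by 0.23. The other increases, from 1.45 to 1.73 log2 units, were those of Tbc1d30, a Rab GTPase activator, Tuba8, a tubulin, Lysmd2, Gtdc1, Bcl2l14, a BCL2 relative, and Hunk, a kinase. The mean of all Gtdc1 probes gave 0.84.

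Among the decreases, Dct, dopachrome tautomerase, a pigment enzyme, ranged from 9.93 to 12.13 in LWT_Fasted (median 10.66) and from 6.75 to 8.72 in LKO_Fasted (median 7.30), and fell by 3.09 log2 units (SE 0.41, adjusted p = 1.91e-05). Other probes of Dct and of Tiam2, an exchange factor for RAC1 whose brightest probe fell by 2.17 log2 units (SE 0.24, adjusted p = 2.69e-06), differed by only -0.06 and -0.10. Aatk, a kinase, fell by 2.09 log2 units (SE 0.21, adjusted p = 9.03e-07), and Lrtm1 fell by 2.06 log2 units (SE 0.29, adjusted p = 4.08e-05), with 4 of 6 LKO_Fasted arrays well above background for Lrtm1. Ces2b, a carboxylesterase, fell by 1.86 log2 units (SE 0.31, adjusted p = 0.000195), Sucnr1, the succinate receptor, fell by 1.82 log2 units (SE 0.15, adjusted p = 7.28e-08) and Gpc1, glypican 1, fell by 1.81 log2 units (SE 0.17, adjusted p = 2.83e-07).

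**Figure D3:**
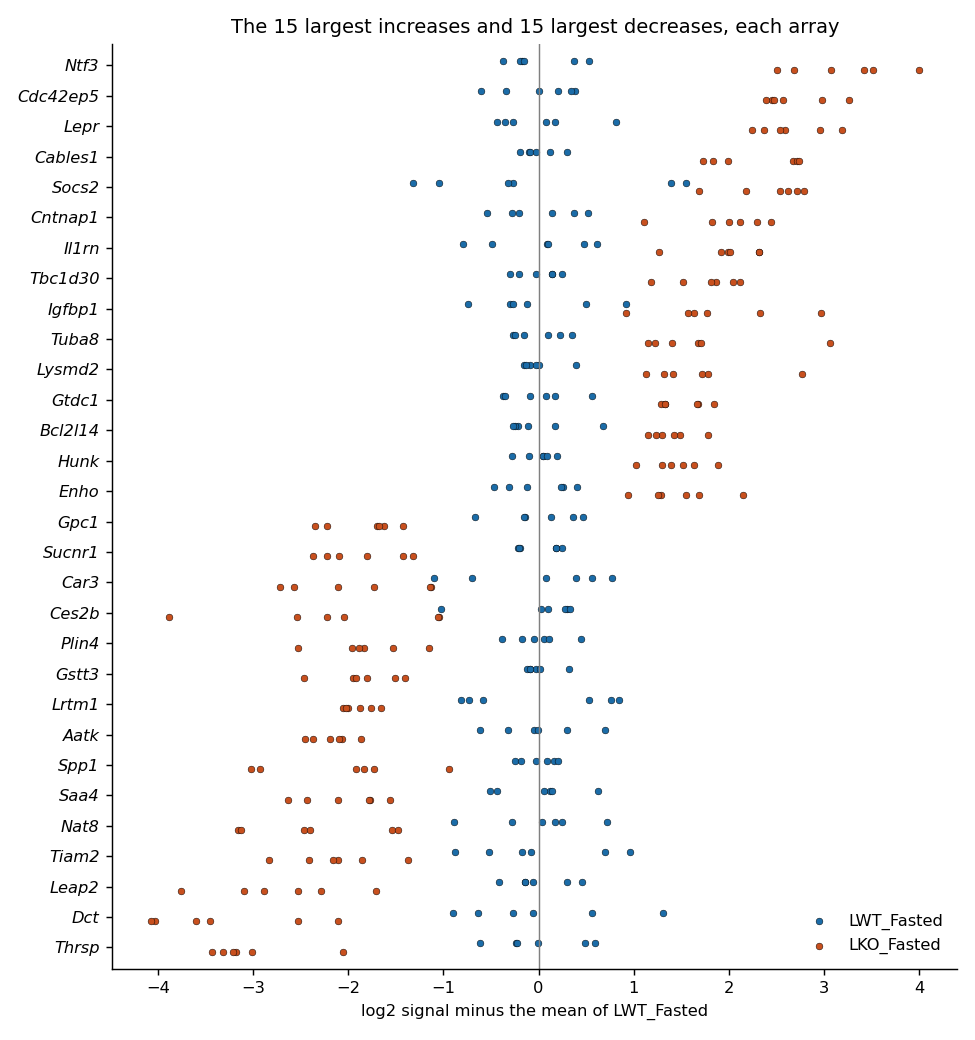
Log2 signal minus the LWT_Fasted mean (horizontal axis) on each of the 12 fasted arrays for the 15 largest increases and 15 largest decreases (rows) among called genes with a RefSeq symbol that met the naming rule. The 6 LKO_Fasted points lie to 1 side of the 6 LWT_Fasted points in each row, which the rule required.

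Markers of the cell types a liver sample can hold were measured beside these results. The summed signal of 10 hepatocyte markers, on the log2 scale, was 21.38 to 21.45 in LWT_Fasted and 21.34 to 21.40 in LKO_Fasted, with none called, and Alb, albumin, differed by -0.015 log2 units (SE 0.035, adjusted p = 0.813). None of the markers of sinusoidal endothelium (12), stellate cells (12) or lymphocytes (8) was called. Of 18 Kupffer and myeloid markers only Cd14 was called, and rose by 0.81 log2 units (SE 0.23, adjusted p = 0.0154). The summed myeloid signal was 15.08 to 16.30 in LWT_Fasted and 15.29 to 16.99 in LKO_Fasted. The Cd14 call was lost without LKO_Fasted 6 (log2 difference 0.54).

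Over 7 bile duct markers the summed signal was 11.06 to 11.40 in LWT_Fasted and 9.76 to 10.67 in LKO_Fasted, with a median log2 difference of -0.16. The sums add linear signal, so 1 bright gene can carry them. Spp1, osteopontin, which is also made by other cells, was the only one called and fell by 2.11 log2 units (SE 0.24, adjusted p = 2.81e-06). Alone it ranged from 10.26 to 10.72 in LWT_Fasted and from 7.48 to 9.57 in LKO_Fasted. The lower sum therefore does not stand for all 7 markers. With the scanner's processed signal 3 bile duct markers fell. Over 8 adipocyte markers the sums were 14.82 to 16.71 against 13.55 to 14.84, with a median log2 difference of -0.09. Of the 8, 3 differed by more than 0, and 3 were called, of which Fabp4 rose. Cfd, adipsin, ranged from 6.19 to 12.35 in LWT_Fasted (median 9.16) and from 5.69 to 7.41 in LKO_Fasted (median 6.07), and fell by 2.98 log2 units (SE 0.74, adjusted p = 0.00563), with 5 of 6 LKO_Fasted arrays well above background. The Cfd difference was -2.27 without LWT_Fasted 1, -3.89 without LWT_Fasted 3 and -4.04 with the scanner's processed signal. Car3, carbonic anhydrase 3, which hepatocytes also make, fell by 1.83 log2 units (SE 0.28, adjusted p = 8.26e-05). Alone it ranged from 14.74 to 16.61 in LWT_Fasted and from 13.12 to 14.71 in LKO_Fasted, close to the adipocyte sums. The lower adipocyte sum therefore does not stand for all 8 markers. Adipoq, adiponectin, differed by 0.079 log2 units (SE 0.12, adjusted p = 0.687). The sums of 5 pancreas markers, 2 of them called in opposite directions, were 13.55 to 13.95 against 12.82 to 13.22. For erythroid cells (5 markers) they were 16.33 to 18.16 against 17.09 to 18.26, and the median difference was 0.39 (0.017 to 0.70 under the alternatives). Of the 5, 4 differed by more than 0 and were not called, and Alas2, the erythroid haem enzyme, fell by 0.83 log2 units (SE 0.16, adjusted p = 0.00086). No marker of these lists was below background on all 12 arrays. The part of adipose, bile duct or blood cells in the differences above was not tested.

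Whether the genotype difference depended on fasting was asked with the interaction term, the fasted difference minus the fed difference. All values are log2 differences. The interaction was called for 752 genes (3.45%), and 847 genes (3.89%) were called between LKO_Fed and LWT_Fed. Among the 885 genes called in fasting, the interaction was called for 360, of which 195 rose and 165 fell in fasting. It had the sign of the fasted difference for all 195 and for 163 of the 165. The fasted difference is a term of the interaction, so the 2 sets of calls are not independent. Without LKO_Fasted 1 and 2 the interaction was called for 1285 genes, with 534 to 1056 without each single array in turn. Igfbp1 had log2 differences of 1.64 in fasting and 1.88 (adjusted p = 0.000205) in the fed state, and an interaction of -0.25 (SE 0.45, adjusted p = 0.781). Irs2 and Enho were also called in both states, at 1.6 (adjusted p = 2.6e-05) and 2.03 (adjusted p = 1.55e-06) in the fed state. Pck1 differed by 0.81 (adjusted p = 0.00464) in the fed state against 0.0012 in fasting, with an interaction of -0.81 (SE 0.28, adjusted p = 0.0755).

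Thrsp and Plin4 had a larger decrease in fasting, and Fasn and Me1 in the fed state. For Thrsp the fed difference was -1.07 (adjusted p = 0.00137) and the interaction -2.04 (SE 0.32, adjusted p = 0.000444). For Plin4 they were -0.64 (adjusted p = 0.013) and -1.23 (SE 0.26, adjusted p = 0.0049). The reverse held for Fasn, with a fed difference of -1.03 (adjusted p = 2.94e-05) and an interaction of 1.0 (SE 0.20, adjusted p = 0.00297), and for Me1, with -1.61 (adjusted p = 4.21e-07) and 1.32 (SE 0.22, adjusted p = 0.000651). Scd1 and Acss2 fell in both states, with fed differences of -1.1 (adjusted p = 3.3e-05) and -0.82 (adjusted p = 5.78e-05), and their interactions were not called.

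Some genes turned direction between the 2 feeding states. Across the series 25 genes were called in both states with opposite signs, 18 higher in fasting and lower when fed and 7 the reverse. A further 173 were called in both states with the same sign. Of the 25, 10 belong to the lists used here. All of the 7 but Slco1a4 are transcripts without a gene symbol, with fasted differences of -2.16 to -1.81. Whether they come from separate loci was not tested. Cidec differed by 1.49 in fasting and -1.63 (adjusted p = 6.84e-05) when fed, an interaction of 3.12 (SE 0.34, adjusted p = 1.53e-05). Apoa4 differed by 0.80 and -1.91 (adjusted p = 3.47e-08), with an interaction of 2.71 (SE 0.20, adjusted p = 9.82e-08). Acot2 differed by 1.95 and -0.75 (adjusted p = 0.0456), and Elovl6 by 1.25 and -1.20 (adjusted p = 0.000109). Elovl5, Acaa1b, Pnpla7, Fgf21 and Inhbe were the other list members of this kind that were higher in fasting, and Slco1a4 was the only one that was lower. Of these, Acaa1b, Pnpla7, Fgf21 and Slco1a4 lost their fasted call without some single arrays, as given above. Of 131 genes of 6 lipid lists, 32 had a called interaction, against 3.45% of all genes.

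**Figure D4:**
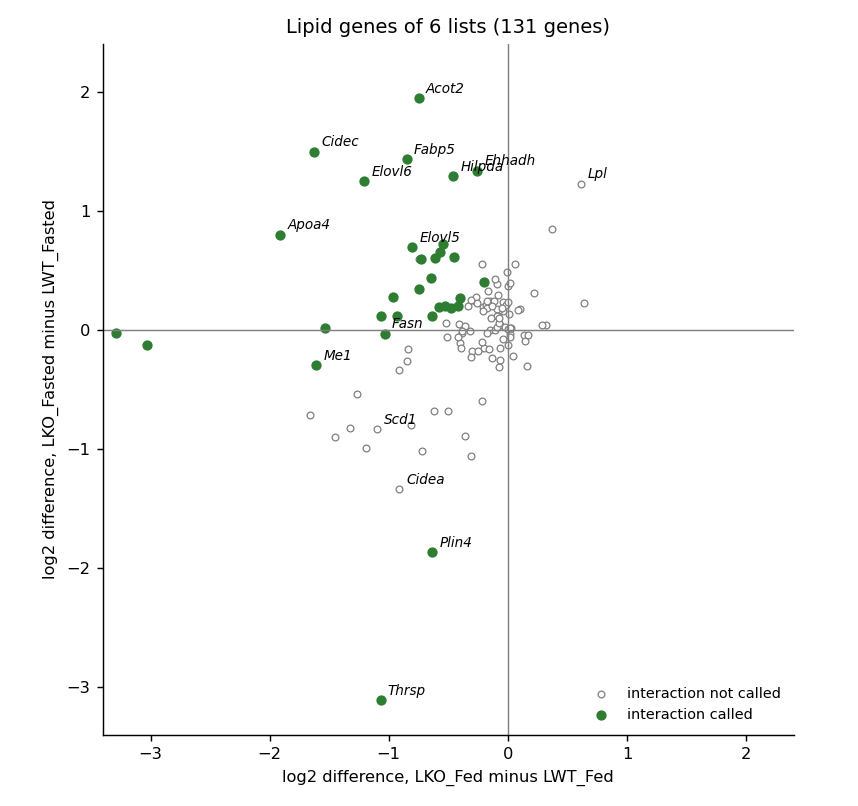
Log2 genotype difference in the fed state (horizontal axis) and in fasting (vertical axis) for 131 genes of 6 lipid lists, filled where the interaction was called (32 genes). Cidec, Apoa4, Acot2 and Elovl6 lie in the upper left quadrant, higher in fasted and lower in fed LKO livers, while Thrsp lies farther from 0 in fasting than in the fed state.

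For other genes the difference was seen in 1 state or in both. Usp2 differed by -0.041 (adjusted p = 0.887) in the fed state, Tsc22d3 by -0.024 (adjusted p = 0.941) and Cables1 by 0.0093 (adjusted p = 0.979), and for each the interaction was called. Hsd3b5 differed by 0.0094 (adjusted p = 0.989), with an interaction of -2.03 (SE 0.46, adjusted p = 0.00831). By contrast Dct and Spp1 fell in the fed state too, with differences of -3.02 (adjusted p = 2.05e-05) and -1.5 (adjusted p = 8.33e-05), and their interactions were not called. Fst and Tuba8 were likewise called in both states, at 1.1 (adjusted p = 0.000429) and 1.54 (adjusted p = 1.43e-06).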

How the data were processed

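Liver RNA was hybridised to 1-colour Agilent SurePrint G3 mouse 8x60K arrays, 1 mouse per array, with 2 arrays of each group on each of 3 slides, and read with Agilent Feature Extraction 10.10.1.1, per the labels. The deposited matrix holds the authors' log2 median signal of 32595 filtered probes, corrected for washing bath and quantile normalized; the filter is not given in the sources used here. The deposited scanner files (linear intensity) gave probe names, background flags, mm9 positions and the alternatives. No annotation of that build was used, so exons are not given. On the fasted arrays 56.2% to 63.0% of spots were well above background. Precision is limited by the 6 arrays in a group.

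All 24 arrays, grouped by title, were fitted with limma 3.58.1 in R 4.3.3, with group and slide as terms and array weights, and p-values were adjusted by Benjamini-Hochberg over all probes. Each gene is represented by its brightest probe. The fit was tested on simulated data. p-values measure the spread between mice of 1 experiment. The comparison and the 49 gene lists were chosen with earlier results of these data known. Named genes are Pik3ca, the 15 largest increases and decreases under the rule given above, and up to 6 called members of each list, with uncalled members as counter-examples. Counts cover all measured members of a list, and some members are not reported here by name. Promoters came from a RefSeq table of GRCm38.p6. Alternatives were the fold, weights, slide term, samples, probe filter, scanner values, background correction, replicate block and probe choice.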

Additional observations from a re-analysis of the deposited data

Results flagged for a closer look

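The values of 157 named genes in the 6 arrays of each fasted group gave 314 groups, and in 33 of them the highest or lowest array stood apart. The measure is the gap to the nearest other array divided by the range of the group, set against Dixon's critical value for 6 arrays. That value flags about 1 of 20 independent groups. Here all genes share the same arrays and many share a pathway, so the 33 were not read against that rate. In 19 of the 33 the array was LKO_Fasted 4, which also stood apart on the second principal component. LKO_Fasted 4 was the lowest of its group and apart in Khk (0.695), Slc2a2 (0.788), Pygl (0.738), Acot2 (0.676), Acot1 (0.656), Acaa1b (0.666), Cpt1a (0.645), Slc16a1 (0.629), Fitm1 (0.662), Cyp4a12a (0.746), Cyp4a10 (0.716) and Ccnd1 (0.637). It was the highest of its group and apart in Acly (0.887), Slco1a4 (0.690), Fst (0.797), Saa1 (0.658), Tuba8 (0.708), Nnmt (0.661) and Hal (0.644). Other LKO_Fasted arrays were apart for Thrsp (array 1, 0.696), Atf5 (array 6, 0.629) and Gadd45b (array 5, 0.707). Among the controls, single arrays were apart for Pklr (array 2, 0.640), Acot2 (array 5, 0.686), Ehhadh (array 5, 0.696), Cyp4a10 (array 5, 0.705), Abcg5 (array 2, 0.714), Per1 (array 4, 0.684), Gstt3 (array 1, 0.699), Srxn1 (array 2, 0.661), Lysmd2 (array 2, 0.707), Ces2b (array 3, 0.781) and Gadd45g (array 1, 0.626). Genes of fatty acid oxidation and of PPARα are among those for which LKO_Fasted 4 was apart. Array 4 kept a low weight of 0.356 in the fit. The cause was not tested.

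For 73 of the named genes the interaction term, the genotype difference in fasting minus that in the fed state, passed the thresholds. Over all genes it did so for 752 (3.45%). Most named genes were chosen for a called fasted difference, which is a term of the interaction, so a high count was built in. Log2 values of the interaction are given in brackets. Called in both states with opposite signs were Cidec (3.12), Apoa4 (2.71), Acot2 (2.70), Elovl6 (2.45), Fgf21 (2.04), Inhbe (1.76), Slco1a4 (-1.53), Elovl5 (1.5), Acaa1b (1.32) and Pnpla7 (1.21). Called in both states in 1 direction were Ntf3 (2.62), Thrsp (-2.04), Lepr (1.75), Leap2 (-1.65), Plin4 (-1.23), Tbc1d30 (1.02), Lysmd2 (1.01), Sucnr1 (-0.87), Gstt3 (-0.79) and Slc6a9 (-0.79). Called only in fasting, and higher in LKO_Fasted, were Cables1 (2.30), Fabp5 (2.28), Cdc42ep5 (2.23), Cntnap1 (2.10), Il1rn (1.85), Hilpda (1.75), Gtdc1 (1.71), Pdk4 (1.68), Ehhadh (1.59), Bcl2l14 (1.44), Plin2 (1.26), Acot1 (1.23), Hunk (1.13), Srxn1 (1.08), Fabp4 (1.07), Cd14 (1.05), Slc16a1 (0.86), Cpt1b (0.86), Hsd17b7 (0.84), Atf5 (0.84) and Hsp90aa1 (0.65). Called only in fasting, and lower in LKO_Fasted, were Hsd3b5 (-2.03), Saa4 (-1.93), Sult1d1 (-1.53), Ddit4 (-1.39), Tsc22d3 (-1.38), Tk1 (-1.35), Usp2 (-1.29), Ciart (-1.27), Car3 (-1.25), Il6ra (-1.19), Hal (-1.16), Cyp2a4 (-1.07), Cyp1a2 (-1.06), Cyp2a5 (-1.02), Sult1b1 (-0.99), Abcg5 (-0.97), Akr1d1 (-0.91), Herpud1 (-0.90), Trp53inp1 (-0.90), Cyp2d22 (-0.89), Klf15 (-0.81), Tsku (-0.69), Lect2 (-0.69), Foxo1 (-0.66), Ppp1r3b (-0.64), Fkbp5 (-0.62) and Hlf (-0.59). Called only in the fed state were Me1 (1.32) and Fasn (1.0). Called in neither state were Acaca (0.77), Irs1 (-0.65) and Pik3ca (-0.60). A call in 1 state and not in the other was not read as a difference, which rests on the interaction term.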

How the results depend on the processing

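None of the 126 called differences of named genes changed sign under the alternatives run. Of the 31 named differences that were not called, 13 changed sign under at least 1 alternative, with Pik3ca, Fasn, Pck1, Cyp7a1, Igf1 and Saa1 among them. Without the least fold, 4851 genes passed (2354 higher, 2497 lower), as did 4437 in the fed comparison and 2172 for the interaction. With a fold over 2 the counts were 225 (101 and 124), 326 and 224. The scanner's processed signal, scaled to the 75th percentile of each array, gave 1385 called genes (595 higher, 790 lower) and 1574 in the fed state, and the cause was not tested. Leaving out both LKO_Fasted 1 and 2 raised the interaction to 1285 genes. Leaving out 1 fasted array at a time gave 774 to 993 called genes, 339 to 438 higher and 435 to 555 lower, 841 to 852 in the fed comparison and 534 to 1056 for the interaction.

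Each setting other than the stricter fold shared 79.9% to 100% of the 885 calls with the same direction. Replicate numbers did not pair the samples: the correlation of the deviations of same-numbered LWT_Fasted and LKO_Fasted arrays was -0.108 to 0.080. With the replicate block, 937 genes were called (400 higher, 537 lower), 824 in the fed comparison and 804 for the interaction. Among named genes, the block lost the calls of Per1 (-0.59), Fabp5 (1.28) and Pnpla7 (0.58) and gained that of Cyp2b10 (-1.35). Of 126 called genes named in the text, 89 kept the call under all 22 alternatives run for single genes. Calls lost under a setting that kept all 24 arrays included those of Angptl8 with no slide term (-0.77), Cyp2c70 (-0.89) and Slco1a4 (-0.46) with no array weights, and Slc37a4 (-0.37), Acss2 (-0.49), Scd3 (-0.38), Ghr (-0.58), Slc40a1 (-0.50) and Trp53inp1 (-0.53) with the mean of all probes. On the 12 fasted arrays alone Cidea (-1.38) and Noct (-1.38) were among the calls lost. The scanner's processed signal gave larger differences for Cidea (-2.22), Ciart (-2.97), Lrtm1 (-3.60), Cfd (-4.04), Bcl2l14 (2.47), Lysmd2 (2.42) and Ntf3 (3.85). Signal over background limits the dim genes. Of the called genes, 5 were well above background on no LWT_Fasted array and 3 on no LKO_Fasted array.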
